A study of Mus musculus with 4 samples.

Results

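Potassium channel genes were examined in RNA sequencing libraries of sorted mouse beta cells, the insulin-secreting cells of the pancreatic islet. The members were all gene names made of Kcn, further letters and a closing number, of which there were 92, together with Abcc8, so that 93 of the 31017 gene names in the deposited tables were included. The choice used names only and no measured value. A further 7 names that begin with Kcn, such as the antisense transcript Kcnq1ot1, did not match and were left out.

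The libraries came from wild type C57BL/6J male mice aged 10 weeks. Dissociated islet cells had been sorted by flow cytometry for their level of CD63, a tetraspanin of late endosomes and secretory vesicles, into CD63 high cells (2 libraries) and CD63 low cells (2 libraries), with no treatment in either group. The labels name no other gate, and nothing in them ties a replicate to its own mouse or sort. The p-values therefore set the difference between the groups only against the spread of these libraries, and that spread may be technical. An exact two-sided permutation of 2 against 2 libraries cannot go below p = 0.333.

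Potassium channels let potassium ions leave the cell and so draw the membrane voltage to negative values. In a resting beta cell the KATP channel, built of the pore subunit Kir6.2 (Kcnj11) and the sulfonylurea receptor SUR1 (Abcc8), holds the membrane negative. When glucose metabolism raises ATP, this channel closes, calcium channels open and insulin is released. Voltage-gated, calcium-activated and background potassium channels then end each action potential and set the resting voltage.

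The pore-forming members share a sequence that the name rule did not use, the signature sequence of the selectivity filter. Its codons, 15 bases, were searched in frame in the longest coding transcript of each member in the GENCODE M21 annotation of GRCm38, the assembly that mm10 names. All 63 pore-forming genes outside the K2P family (tandem-pore domain channels) held the signature once, and all 14 K2P genes held 2 copies of it. Abcc8 and the 15 accessory subunit genes held none. The search had been widened after a stricter form missed some pore-forming genes, so these full counts do not test the classes. In the K2P family an intron split the first signature in 14 of 14 genes and the second in none of them. Elsewhere an intron split it in 3 genes, all of them voltage-gated pore genes.

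The signature is shown with 15 bases on either side for the member that fell (Kcnh2), for its close relative Kcnh6, for Kcnma1, the BK channel pore, and for 3 K2P members that were among the 10 highest in level. Capitals mark the signature codons, and the sequences are coding sequence on the gene's own strand.
Kcnh2: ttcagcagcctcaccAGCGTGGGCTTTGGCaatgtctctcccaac
Kcnh6: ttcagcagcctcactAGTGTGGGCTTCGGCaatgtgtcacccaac
Kcnma1: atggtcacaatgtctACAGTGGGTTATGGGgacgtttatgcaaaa
Kcnk16, first: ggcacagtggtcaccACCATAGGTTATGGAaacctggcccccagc
Kcnk16, second: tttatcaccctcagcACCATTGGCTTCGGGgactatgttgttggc
Kcnk12, first: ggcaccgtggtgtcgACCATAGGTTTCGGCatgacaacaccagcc
Kcnk12, second: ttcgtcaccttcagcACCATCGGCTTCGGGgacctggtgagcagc
Kcnk1, first: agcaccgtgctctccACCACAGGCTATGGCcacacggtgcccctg
Kcnk1, second: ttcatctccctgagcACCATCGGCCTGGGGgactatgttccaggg

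The signature codons of Kcnh2 lie at chr5:24325555-24325569 on the minus strand, in exon 7 of 15. Those of Kcnh6 lie at chr11:106019076-106019090 on the plus strand, in exon 6 of 13. The windows of Kcnh2 and Kcnh6 were identical at 40 of 45 bases, against 30 of 45 for Kcnh2 and Kcnh1, a more distant relative. In Kcnk16 (minus strand) the first signature ran across an intron at chr14:20264319-20265172 and the second lay in exon 4 of 5 at chr14:20263262-20263276, and the windows matched at 20 of 45 bases. In Kcnk12 (minus strand) the first ran across an intron at chr17:87746834-87797070 and the second lay at chr17:87746453-87746467, and in Kcnk1 (plus strand) they lay at chr8:125995808-126025019, across an intron, and at chr8:126025329-126025343. The Kcnma1 signature lies at chr14:23528413-23528427 (minus strand) in exon 8 of 31.

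RefSeq promoter sequences (GRCm38.p6, 250 bases before to 50 after a start site) were matched for 67 of the 93 members. Those of Kcnh2, which fell, and of Kcnk16, the most abundant pore-forming member, are shown because they differ in base composition. The windows were searched on both strands for CACGTG (an E-box), TGACG (a core of the cyclic AMP response element), TATAAA and GGGCGG (a GC box); no match overlapped another. Capitals mark the matches, and both sequences read along the gene's strand.
Kcnh2: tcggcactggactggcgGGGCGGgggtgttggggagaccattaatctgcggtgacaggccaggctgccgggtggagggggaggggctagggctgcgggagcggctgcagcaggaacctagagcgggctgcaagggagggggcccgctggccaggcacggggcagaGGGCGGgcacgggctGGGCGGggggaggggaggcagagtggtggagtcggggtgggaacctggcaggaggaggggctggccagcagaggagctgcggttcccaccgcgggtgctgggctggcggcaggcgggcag
Kcnk16: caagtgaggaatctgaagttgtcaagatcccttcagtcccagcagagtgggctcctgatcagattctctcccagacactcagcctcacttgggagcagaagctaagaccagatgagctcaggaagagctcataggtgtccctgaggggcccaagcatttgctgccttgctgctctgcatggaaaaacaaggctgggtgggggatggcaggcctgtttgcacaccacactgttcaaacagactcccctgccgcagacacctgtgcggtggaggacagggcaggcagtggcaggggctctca

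The Kcnh2 window (chr5:24329542-24329841, minus strand) lies within the span of the deposited gene, so the start site it marks is an internal one. It held 19 CpG dinucleotides and 3 GC boxes. The Kcnk16 window (chr14:20269220-20269519, minus strand) held 2 CpG dinucleotides and none of the 4 motifs. GC boxes were present in 35 of the 67 member promoters (52.2%) and in 35.9% of all 27025 promoters of the table, TATAAA in 4.48% and 14.2%, TGACG in 25.4% and 21.0%, and CACGTG in 7.46% and 7.24%.

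Total counts were 30436845 and 29249270 for CD63 high, against 32953539 and 35003307 for CD63 low. The members took 0.0847% and 0.0690% of them for CD63 high, against 0.0852% and 0.112% for CD63 low. A limit of 3 counts corresponded to 0.0770 to 0.108 CPM, the library-scaled count used here (effective library sizes by the TMM method), in single libraries, and such limits cover counting error only. Cd63, the transcript of the sorting marker, stood at 2026 ± 72.8 CPM for CD63 high, against 1153 ± 46.9 CPM for CD63 low (SD, n = 2 each). The cells are labelled beta cells, and the insulin genes Ins1 and Ins2 were the most abundant of 14 beta cell identity genes tested. Of these 14, 3 were lower in CD63 high cells by edgeR (Slc30a8, Mafa and Glp1r) and the median log2 fold change was -0.45. Log2 fold changes were below 0 in 10 of them and above 0 in 4, with Ins1 at 0.06 and Ins2 at -0.06 (SE 0.23 each). Markers of other cell types were present too and differed between the groups. The summed level of 11 alpha cell markers was 6003 and 6956 CPM for CD63 high, against 1307 and 1164 CPM for CD63 low, with 2 of 9 tested higher by edgeR. That of 9 delta and gamma cell markers was 2802 and 5016 against 635 and 326 CPM (7 of 7 higher), that of 14 macrophage markers 255 and 1104 against 46.8 and 72.9 CPM (12 of 14), and that of 15 acinar cell markers 1031 and 1606 against at most 356 CPM (6 of 14). Of 12 duct cell markers 1 of 9 tested was higher (summed level 3247 and 1973 against 1193 and 1158 CPM, Cftr at 0). No endothelial (4 tested, 1 at an unadjusted p under 0.05), stellate (3 tested, none) or lymphocyte (1 tested, none) marker passed by edgeR, DESeq2 or limma-voom, and their sums were at most 8.52, 7.22 and 2.44 CPM in any library. Of 10 Schwann cell and neural markers 4 were tested and Tubb3, a neuronal tubulin, was higher, with summed levels of 107 and 94.3 against 73.3 and 77.4 CPM. With library size as the only scaling the calls were 1 of 14 for macrophage, 0 of 14 for acinar and 3 of 7 for delta and gamma cell markers, and 0 of 14 for beta cell identity genes (13, 11, 7 and 7 at an unadjusted p under 0.05). In bulk samples fewer cells of a type and less RNA per cell cannot be told apart, and the part of these cells in the results below was not tested unless a value is given.

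Of the 93 members, 38 passed the filter on low counts and were tested, 21 had counts below it, and 34 had no count in any library. All 4 SK and IK genes (Kcnn, channels opened by calcium alone) and 6 of the 8 EAG family genes (Kcnh) were tested, against 3 of 15 inward rectifier genes (Kcnj) and 5 of 14 K2P genes (Kcnk). Among 17 voltage-gated pore genes (Kcna to Kcnd) 6 were tested and 7 had no count. Of 10 silent voltage-gated subunits, which form no channel alone, Kcnf1 was tested and 6 had no count.

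**Figure D1:**
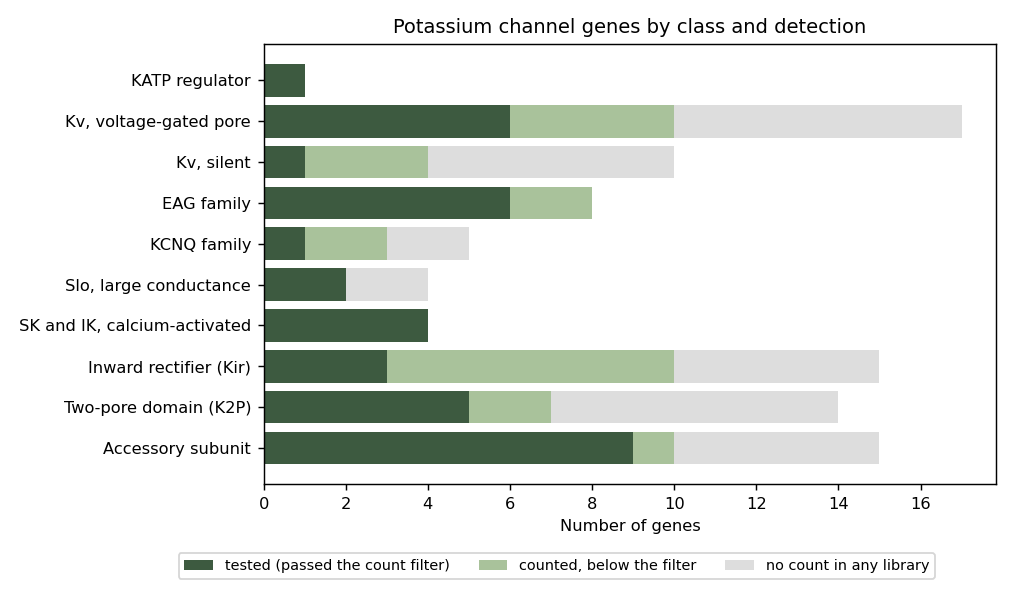
Number of potassium channel genes in each class, on the horizontal axis, by whether they were tested, counted below the filter or without a count in any library. The bars hold 38 tested, 21 low and 34 uncounted genes in all, and only the EAG and the SK and IK classes and Abcc8 had no uncounted gene.

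Levels between genes are compared as RPKM, the CPM per kilobase of merged exon. Abcc8 was the most abundant member, with 40.6 and 29.7 RPKM for CD63 high, against 37.9 and 58.2 RPKM for CD63 low. Kcnk16, which encodes TALK-1, an alkaline-activated K2P channel of islets, stood at 31.4 and 32.1 RPKM for CD63 high, against 59.2 and 34.3 RPKM for CD63 low. The ranges of these most abundant members overlapped, so the libraries give them no firm order. Next came Kcnmb2, the beta 2 subunit of the BK channel, Kcnk1 (TWIK-1, another K2P channel) and Kcnip1 (KChIP1, a cytosolic partner of Kv4 channels), with means over all 4 libraries of 24.6, 21.7 and 14.5 RPKM. Kcnj11 (8.72), Kcnk12 (8.56), Kcnh6 (5.35), Kcnh2 (4.55) and Kcnab3 (2.44 RPKM), a Kv beta subunit, completed the 10 highest. Summed over all members, the level was 173 and 164 RPKM for CD63 high, against 215 and 206 RPKM for CD63 low. The sums did not overlap, as a description with no test. Abcc8, Kcnk16 and Kcnmb2 weigh most in them, and none of these passed by edgeR with all 4 libraries. Kcnmb2, an accessory subunit gene, stood at 13.4 and 21.8 RPKM for CD63 high, against 34.6 and 28.5 RPKM for CD63 low. Of the 38 tested members, 17 had log2 fold changes above 0 and 21 below, so the sums do not describe each gene. By class, both CD63 high sums were below both CD63 low sums for EAG genes (11.6 and 10.4 against 13.7 and 16.0 RPKM), accessory subunits (35.3 and 40.8 against 52.2 and 47.0 RPKM) and inward rectifiers. They were above for KCNQ genes, at 0.627 and 0.607 against 0.534 and 0.479 RPKM. The K2P sum had one CD63 low library apart, at 66.1 and 64.3 RPKM for CD63 high, against 86.9 and 64.4 RPKM for CD63 low. The RPKM of a gene with long annotated exons is lowered where cells use shorter transcripts.

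**Figure D2:**
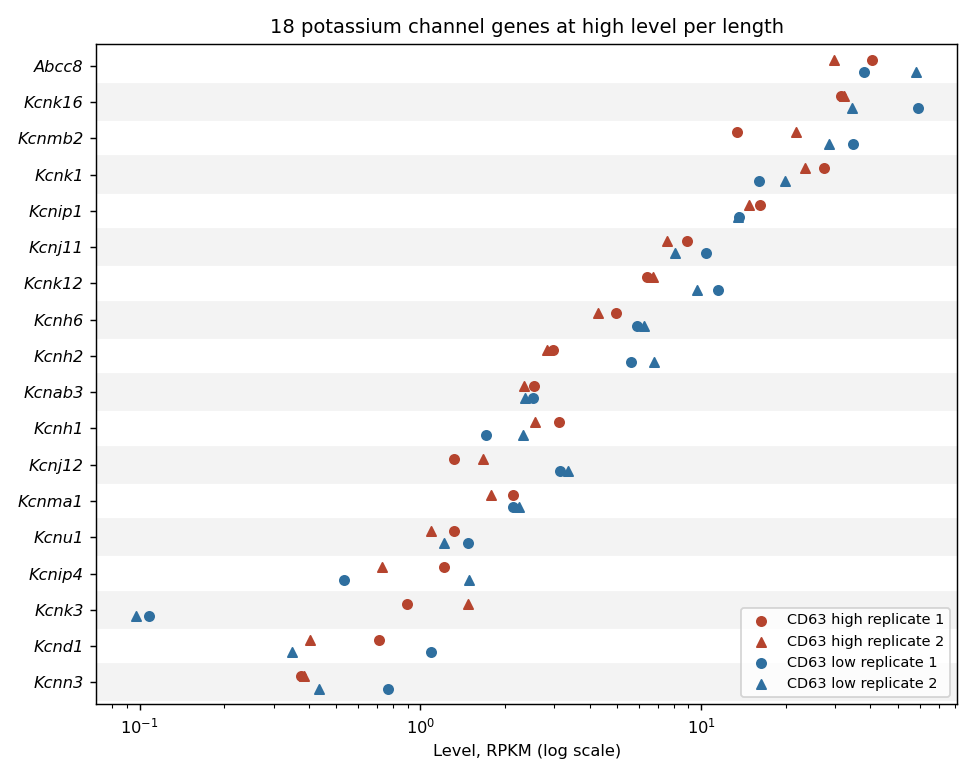
Level of 18 of the 20 members with the highest mean, in RPKM on a log axis, in each CD63 high library (red) and CD63 low library (blue), circles for replicate 1 and triangles for replicate 2. Abcc8 and Kcnk16 lie near 30 to 60 RPKM, and Kcnk3 shows the widest gap between the groups.

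The quasi-likelihood test of edgeR, with Benjamini-Hochberg adjusted p over all 13241 tested genes, called 1 potassium channel gene as higher and 1 as lower in CD63 high cells at an adjusted p under 0.05. Kcnk3 rose and Kcnh2 fell, and the other 36 did not pass. Over all tested genes 2.5% rose and 0.287% fell, and each of the members' counts rests on 1 gene. The median log2 fold change, CD63 high over CD63 low, was -0.16 over the tested members, with 17 above 0 and 21 below, and -0.01 over all tested genes. In 11 of 38 members (28.9%) both CD63 high libraries were above both CD63 low libraries, against 23.8% of all tested genes, and in 13 (34.2%) they were below, against 22.2%. At an unadjusted p under 0.05, 4 members were higher and 4 lower (10.5% each), against 8.95% and 5.96% of all tested genes.

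**Figure D3:**
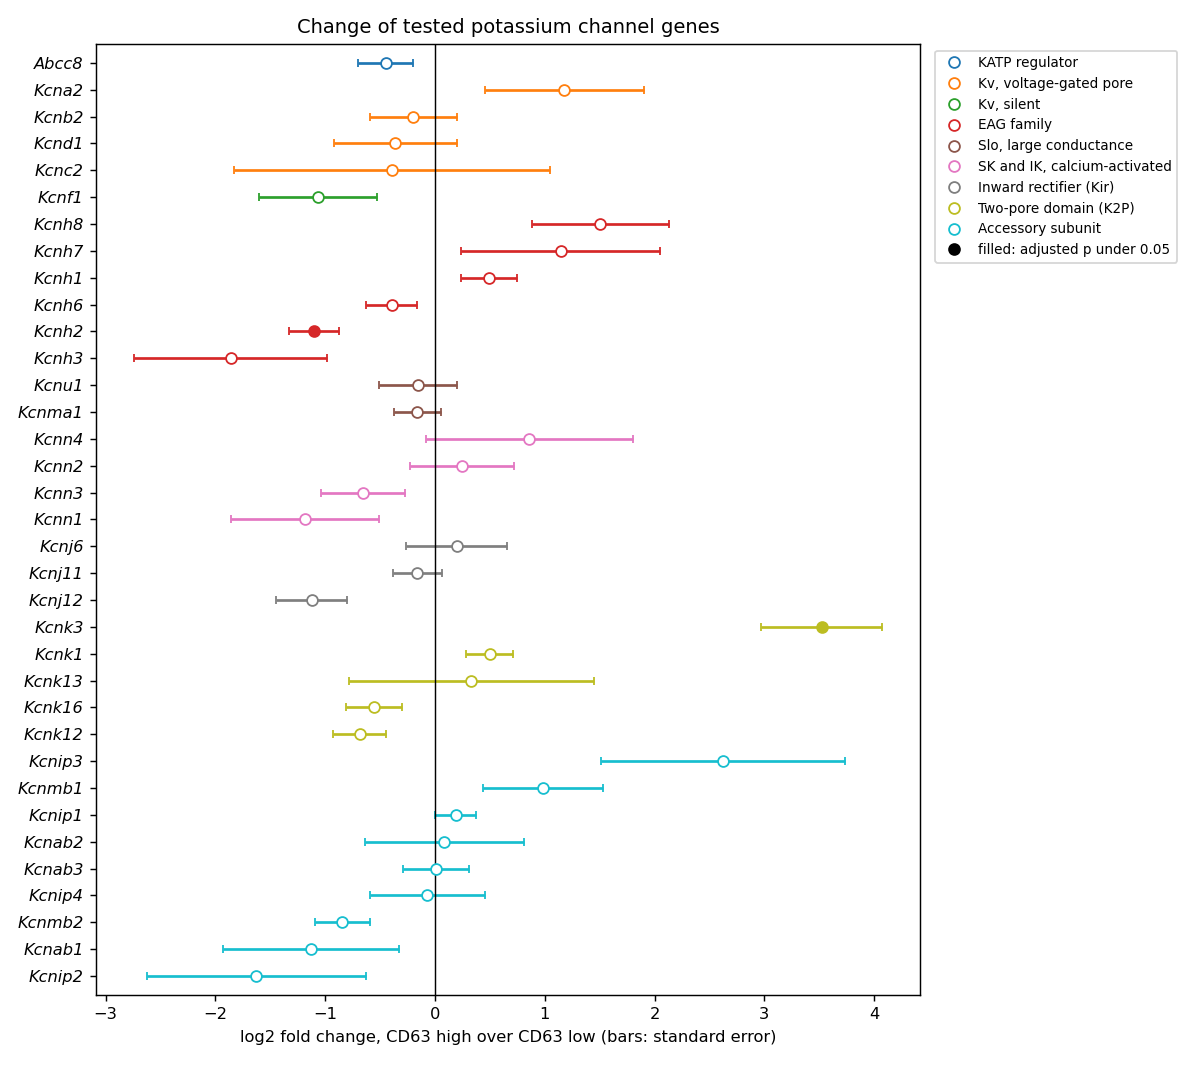
Log2 fold change of 35 of the 38 tested potassium channel genes, CD63 high over CD63 low, with its standard error, ordered by class. Kcnk3 at 3.52 and Kcnh2 at -1.10 are the filled points that passed an adjusted p of 0.05, and 20 of the 35 genes shown lie below 0.

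Kcnk3 encodes TASK-1, an acid-sensitive K2P background channel that has been recorded in mouse alpha cells and human beta cells. It lies on chromosome 5 (30588170 to 30625271, mm10) and had 112 and 162 counts for CD63 high against 13 and 15 counts for CD63 low. These were 3.58 and 5.85 CPM for CD63 high, against 0.428 and 0.385 CPM for CD63 low, so the groups did not overlap and both CD63 low values were close together. The level was 11.5-fold higher in the CD63 high group (log2 fold change 3.52, SE 0.55, edgeR adjusted p 0.00761). It passed in all 13 alternative analyses (other scalings, filters and tools, single libraries left out, a replicate block), with log2 fold changes of 3.13 to 3.84 and adjusted p of 8.43e-08 to 0.0459, the highest with library size as the only scaling. At 1.19 ± 0.405 RPKM in CD63 high cells (mean ± SD, n = 2) it remained far below Kcnk16 and Kcnk1.

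Among alpha cell markers, Gcg and Gc rose in the same comparison as Kcnk3. Gcg, the glucagon gene, stood at 4987 and 5646 CPM for CD63 high, against 180 and 287 CPM for CD63 low. Gc, a vitamin D binding protein gene of alpha cells, rose with a log2 fold change of 1.47 (SE 0.24, edgeR adjusted p 0.00857). Of the 9 alpha cell markers tested, 8 had log2 fold changes above 0 and 2 passed, and Pou3f4 and Fap were at 0 in both CD63 low libraries. The part of alpha cell RNA in the rise of Kcnk3 was not tested.

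The other K2P genes tested did not pass. Kcnk16 had 2340 and 2112 counts, or 74.7 and 76.3 CPM, for CD63 high, against 4271 and 3178 counts, or 141 and 81.6 CPM, for CD63 low. The CD63 high libraries were nearly equal and below both CD63 low libraries, of which replicate 1 stood apart. Its log2 fold change was -0.56 (SE 0.25, edgeR adjusted p 0.337), and without CD63 low replicate 2 it was -0.88 (adjusted p 0.0217), against -0.12 without CD63 low replicate 1. Kcnk12, which encodes THIK-2, stood at 12.4 and 13.0 CPM for CD63 high, against 22.1 and 18.7 CPM for CD63 low (log2 fold change -0.68, SE 0.24, edgeR adjusted p 0.192). Kcnk1 lay on the other side, at 60.9 and 52.5 CPM for CD63 high, against 35.9 and 44.4 CPM for CD63 low (0.50, SE 0.21, edgeR adjusted p 0.299). Some Kcnk1 exon bases are shared with the antisense gene Gm45875, and counting without strand cannot tell such reads apart. Kcnk13 (THIK-1) varied within the groups more than between them, with 3 and 47 counts for CD63 high, against 9 and 43 counts for CD63 low. Kcnk5, which lies 79566 bases from Kcnk16 on chromosome 14, had no count in any library.

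**Figure D4:**
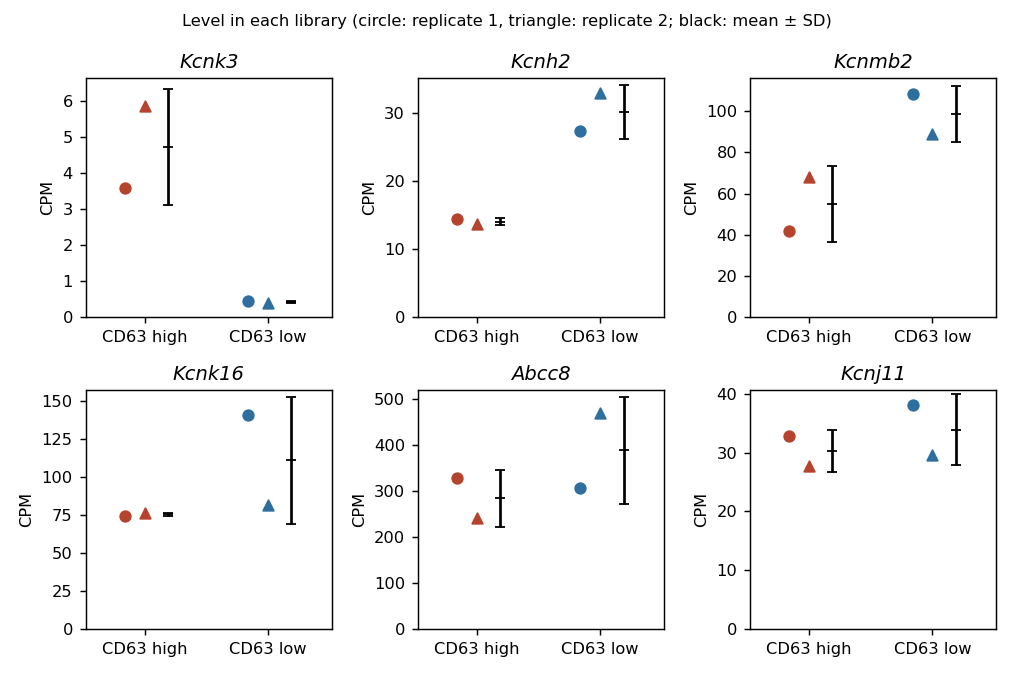
Level in CPM of 6 members in each CD63 high library (left, red) and CD63 low library (right, blue), with circles for replicate 1, triangles for replicate 2 and the mean ± SD in black. Kcnk3 is higher in both CD63 high libraries, Kcnh2 and Kcnmb2 are lower in both, and Abcc8 and Kcnj11 overlap between the groups.

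Kcnh2 encodes the erg1 channel, a voltage-gated channel of the EAG family known from the heart, where it ends the action potential, and recorded in islet cells. It lies on chromosome 5 (24319589 to 24351604, mm10) and had 450 and 378 counts for CD63 high, against 829 and 1279 counts for CD63 low. These were 14.4 and 13.7 CPM for CD63 high, against 27.3 and 32.8 CPM for CD63 low, so each CD63 low library was above each CD63 high library. The level was 2.15-fold lower in the CD63 high group (log2 fold change -1.10, SE 0.23, edgeR adjusted p 0.0304). The log2 fold change stayed between -1.23 and -0.95 in the same 13 alternatives, and the adjusted p ran from 0.00127 to 0.141. Among beta cell identity genes 3 of 14 fell in the same comparison, and 4 had log2 fold changes above 0. The median log2 fold change over that list was -0.45, and the part of beta cell RNA in the fall of Kcnh2 was not tested. The call was lost when replicate 1 of CD63 high (0.0546), replicate 2 of CD63 high (0.10) or replicate 2 of CD63 low (0.0720) was left out, and with no scaling beyond library size (0.141).

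Kcnh6, which encodes erg2 and matched Kcnh2 at 40 of 45 bases around the signature, stood at 17.6 and 15.2 CPM for CD63 high, against 21.0 and 22.2 CPM for CD63 low. Its log2 fold change was -0.39 (SE 0.23, edgeR adjusted p 0.485). The ratio of Kcnh2 to Kcnh6 in RPKM was 0.598 and 0.656 for CD63 high, against 0.955 and 1.09 for CD63 low. This ratio did not overlap between the groups, and it carries no test of its own. Kcnh1, which encodes eag1, was higher in both CD63 high libraries (22.8 and 18.8 CPM, against 12.6 and 17.0 CPM in CD63 low) and did not pass (log2 fold change 0.49, SE 0.26, edgeR adjusted p 0.413).

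The EAG genes at low level went both ways and did not pass. Kcnh8, which encodes Elk1, had 55 and 70 counts for CD63 high, against 23 and 29 counts for CD63 low (log2 fold change 1.51, SE 0.62, edgeR adjusted p 0.287). Kcnh3, which encodes Elk2, had 25 and 3 counts for CD63 high, against 40 and 79 counts for CD63 low (-1.86, SE 0.88, edgeR adjusted p 0.363). Its log2 fold change was -3.91 (adjusted p 0.0611) when replicate 1 of CD63 high was left out, and -1.07 when replicate 2 was. Kcnh3 shares exon bases with Mcrs1 on the opposite strand, whose reads cannot be told apart. Kcnh7, which encodes erg3, had 26 and 15 counts for CD63 high, against 11 and 10 counts for CD63 low.

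The KATP channel genes lie side by side on the minus strand of chromosome 7, Kcnj11 at 46093953 to 46100764 and Abcc8 at 46104523 to 46180033 (mm10), 3758 bases apart. Kcnj11 stood at 32.8 and 27.8 CPM for CD63 high, against 38.1 and 29.6 CPM for CD63 low. Abcc8 stood at 329 and 241 CPM for CD63 high, against 306 and 471 CPM for CD63 low. Both overlapped between the groups, and neither passed (log2 fold changes -0.16, SE 0.23, and -0.45, SE 0.25, edgeR adjusted p 0.826 and 0.452). The fold change of Kcnj11 turned to 0.03 without CD63 low replicate 1. Per length Abcc8 exceeded Kcnj11 by 4.55 and 3.94 times for CD63 high, against 3.65 and 7.24 times for CD63 low. The channel protein holds equal numbers of both subunits, and a ratio of RNA per length does not measure subunit numbers. Abcc9, which encodes SUR2, the other sulfonylurea receptor, had 8 and 14 counts for CD63 high, against 2 and 30 counts for CD63 low.

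Among the other inward rectifiers Kcnj12, which encodes Kir2.2, had 113 and 127 counts, or 3.61 and 4.59 CPM, for CD63 high, against 262 and 358 counts, or 8.64 and 9.19 CPM, for CD63 low. The groups did not overlap, and each was narrow. The log2 fold change of -1.12 (SE 0.32) did not pass, at an edgeR adjusted p of 0.107, and passed (0.0374) when no filter on low counts was applied. Kcnj6, which encodes the G protein-gated channel GIRK2, had 141 and 71 counts for CD63 high, against 73 and 146 counts for CD63 low and overlapped. The other G protein-gated genes, Kcnj3 and Kcnj5, had no count, and Kcnj9 had 0 and 4 counts for CD63 high, against 0 and 3 counts for CD63 low.

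None of the 6 voltage-gated pore genes tested passed by edgeR, DESeq2 or limma-voom, and 0 had an unadjusted edgeR p under 0.05. Kcnb2 (Kv2.2) and Kcnd1 (Kv4.1) averaged 3.34 and 2.95 CPM for CD63 high, against 3.83 and 3.81 CPM for CD63 low, and overlapped. Amigo1, a membrane protein that accompanies Kv2 channels, stood at 29.06 ± 0.0750 CPM for CD63 high, against 37.6 ± 4.68 CPM for CD63 low (SD, n = 2 each; log2 fold change -0.37, SE 0.21, edgeR adjusted p 0.466). Kcna2 (Kv1.2) had 54 and 65 counts for CD63 high, against 11 and 55 for CD63 low, and Kcnc2 (Kv3.2) 20 and 4 counts against 32 and 0. Kcnf1, which encodes the silent subunit Kv5.1, had 48 and 28 counts for CD63 high, against 84 and 100 counts for CD63 low (-1.06, SE 0.54, edgeR adjusted p 0.397).

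Kcnip1 was the most abundant of the 4 Kv4 accessory genes tested. It had 3144 and 2534 counts for CD63 high, against 2562 and 3274 counts for CD63 low, with a log2 fold change of 0.19 (SE 0.19, edgeR adjusted p 0.726). Kcnd2 and Kcnd3, which encode Kv4.2 and Kv4.3, had no count in any library. Dpp6 and Dpp10, membrane partners of Kv4 channels, did not pass the count filter, and Dpp6 reached 1.37 CPM in CD63 high replicate 1. Kcnip3, which encodes KChIP3, also known as DREAM, had 67 and 37 counts for CD63 high, against 0 and 21 counts for CD63 low (log2 fold change 2.62, SE 1.11, edgeR adjusted p 0.300). Without a filter on low counts Kcnip3 passed (0.0442). It also passed without CD63 low replicate 2 (0.00663), where the remaining CD63 low library has no count and the level in CD63 high cells was at least 17.6-fold higher, taking 3 counts as the limit. Without CD63 low replicate 1 its log2 fold change was 1.68 (adjusted p 0.356), and without CD63 high replicate 1 the adjusted p was 0.533. Kcnab3 was level between the groups, at 7.28 and 6.72 CPM for CD63 high, against 7.18 and 6.73 CPM for CD63 low, and shares exon bases with the antisense gene Kcnab3os. The other accessory genes tested overlapped or were at low counts. Kcnip4 had 138 and 73 counts for CD63 high, against 59 and 211 for CD63 low, and Kcnip2 5 and 9 against 11 and 44. The Kv beta subunits Kcnab1 and Kcnab2 had 15 and 15 and 91 and 17 counts for CD63 high, against 48 and 26 and 40 and 78 for CD63 low.

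The BK channel opens on calcium and depolarisation together. Its pore gene Kcnma1 had 1133 and 835 counts for CD63 high, against 1096 and 1480 counts for CD63 low, with a log2 fold change of -0.16 (SE 0.21, edgeR adjusted p 0.807). Kcnmb2, the subunit that makes this channel inactivate, stood at 41.9 and 68.1 CPM for CD63 high, against 108 and 89.0 CPM for CD63 low. All CD63 high values were below the CD63 low values, and the log2 fold change of -0.84 (SE 0.25) did not pass, at an edgeR adjusted p of 0.118. Kcnmb2 passed with DESeq2 (adjusted p 0.0301), without a filter on low counts (0.00574), and without CD63 high replicate 2 (-1.24, 0.0200) or CD63 low replicate 2 (-0.96, 0.0250). Without CD63 high replicate 1 its log2 fold change was -0.53. Per length Kcnmb2 exceeded Kcnma1 by 6.28 and 12.2 times for CD63 high, against 16.3 and 12.7 times for CD63 low. Kcnmb1, the beta 1 subunit known from smooth muscle, had 99 and 62 counts for CD63 high, against 52 and 40 counts for CD63 low. It lies within the span of Kcnip1 on the opposite strand, without shared exon bases. Kcnu1, which encodes the sperm channel Slo3, was at 4.50 ± 0.590 CPM in CD63 high and 5.01 ± 0.697 CPM for CD63 low (SD, n = 2 each).

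The 4 calcium-activated SK and IK genes were at low level and did not pass. Kcnn1 (SK1) and Kcnn3 (SK3) were below in both CD63 high libraries, Kcnn1 with 22 and 18 counts for CD63 high, against 53 and 52 for CD63 low, and Kcnn3 with 123 and 111 counts against 243 and 177. Kcnn4, the IK channel of blood and epithelial cells, had 18 and 44 counts for CD63 high, against 31 and 7 counts for CD63 low. Kcnn2 (SK2) had 70 and 84 counts for CD63 high, against 67 and 87 counts for CD63 low. Kcnq1, a gene linked to type 2 diabetes in human genetics, had 0 and 4 counts for CD63 high, against 20 and 0 counts for CD63 low. It shares exon bases with the antisense transcript Kcnq1ot1. Exon bases are also shared with a gene of the opposite strand in Kcnn2, Kcnh7, Kcnj6, Kcnab1 and Kcnip4.

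**Figure D5:**
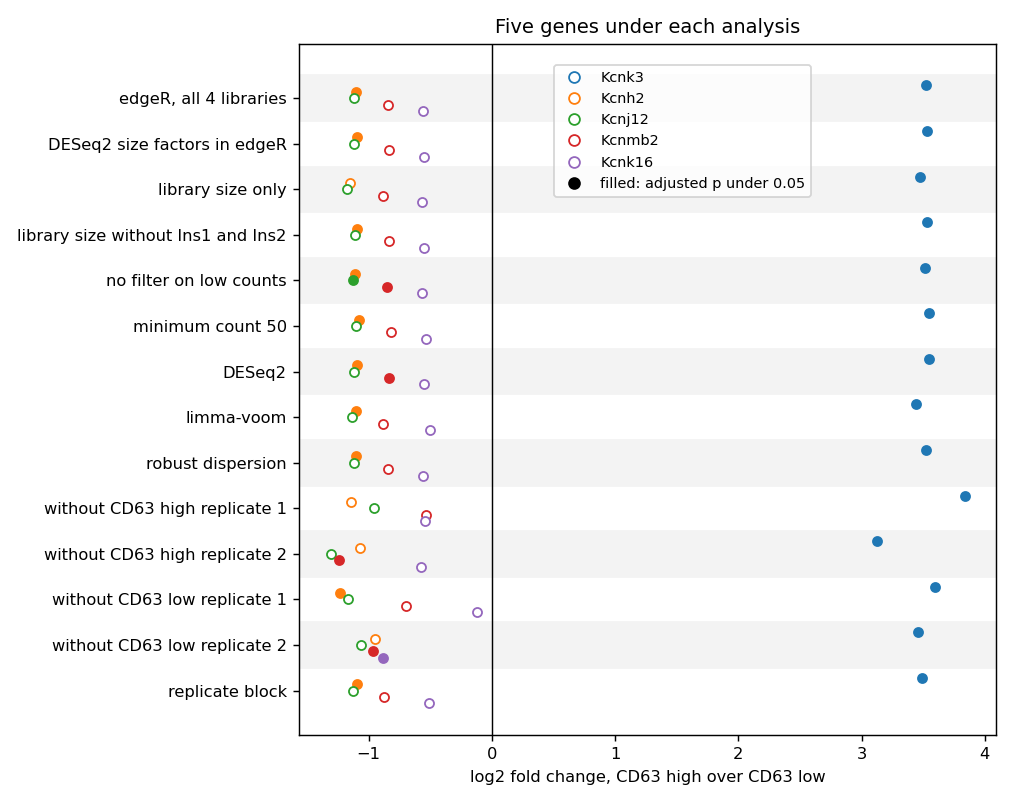
Log2 fold change, CD63 high over CD63 low, of 5 members under the analysis with all 4 libraries and 13 alternatives, filled where the adjusted p was under 0.05. Kcnk3 passes throughout at 3.13 to 3.84, and Kcnh2 stays between -1.23 and -0.95 with the call lost in 4 alternatives.

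Of the 21 genes below the filter, Kcng3 had the most counts, with 26 and 9 for CD63 high, against 10 and 6 for CD63 low. It encodes a silent subunit, Kv6.3. Kcna5, a Kv1 channel also found in macrophages, had 0 and 22 counts in CD63 high and no count in CD63 low libraries, and Kcna3, known from lymphocytes and macrophages, 0 and 15 against 0 and 4. Kcnj8, the KATP pore gene of pericytes, had 17 and 1 counts for CD63 high, against 0 and 6 counts for CD63 low. Kcnk10 (TREK-2) had 11 and 2 counts for CD63 high, against 1 and 1 for CD63 low. No fold is given for these genes. The remaining genes below the filter had at most 20 counts in any library. The 34 without a count included channels known from neurons (Kcna1, Kcnc1, Kcnd2 and Kcnq3), from the kidney (Kcnj1) and an accessory subunit of the heart and inner ear (Kcne1).

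Genes that work with potassium channels were described from 3 lists. Of 20 channel partners outside the name rule, 13 were tested by edgeR and none passed, 0 of them with an unadjusted p under 0.05. DESeq2 and limma-voom passed none either, with 1 each at an unadjusted p under 0.05. Their median log2 fold change was -0.19, with 9 of 13 below 0. Hcn2 and Hcn4, which encode pacemaker channels, were both below in each CD63 high library. Hcn2 stood at 9.16 and 7.11 CPM for CD63 high, against 13.1 and 11.7 CPM for CD63 low, and Hcn4 at 3.38 and 4.19 CPM against 4.84 and 5.93 CPM.

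Of 29 tested genes of beta cell excitability beyond potassium channels, 1 fell, and the median log2 fold change was -0.09. The one that fell was Slc2a2, the glucose transporter GLUT2, at 50.01 and 71.9 CPM for CD63 high, against 164 and 184 CPM for CD63 low (log2 fold change -1.51, SE 0.23, edgeR adjusted p 0.00623). Over all tested genes 2.5% rose and 0.287% fell. At an unadjusted p under 0.05, 2 of the 29 were higher, both of them sodium channel pore genes, and 6 were lower. Over all tested genes 8.95% were higher and 5.96% lower at that unadjusted threshold. The depolarising channels Trpm2, Trpm5 and Nalcn were below in both CD63 high libraries and missed the threshold (-2.10, SE 0.56, -0.98, SE 0.29, and -1.04, SE 0.31, edgeR adjusted p 0.0772, 0.113 and 0.118). The calcium channel genes Cacna1c, Cacna1d and Cacnb2 had log2 fold changes of -0.15, -0.35 and -0.61 (SE 0.29, 0.26 and 0.28) and the cation channel gene Trpm4 of 0.24 (SE 0.28), and none passed.

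Of 14 tested genes of the sodium pump and potassium cotransport, 1 rose and 1 fell, against 2.5% and 0.287% of all tested genes. Slc12a7, the potassium chloride cotransporter KCC4, stood at 18.2 and 18.1 CPM for CD63 high, against 36.4 and 71.8 CPM for CD63 low (log2 fold change -1.58, SE 0.30, edgeR adjusted p 0.0196). Fxyd5, a pump regulator also known as dysadherin, stood at 7.69 and 17.4 CPM for CD63 high, against 0.527 and 0.590 CPM for CD63 low (4.47, SE 0.49, edgeR adjusted p 0.00170). Atp1b1, a beta subunit of the pump, had a log2 fold change of 0.01 (SE 0.19) and overlapped between the groups.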

How the data were processed

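Per the labels' protocols, islets were digested, picked by hand, cultured overnight, dissociated and sorted for CD63. The polyA RNA went through SMARTer v4 low-input cDNA synthesis and Nextera XT, which keep no strand. The authors deposited raw fragment counts per gene name, made with featureCounts 1.6.2 without a strand option or an option for multiple alignments, per the file headers, with a summed exon length beside each count, used here for RPKM. STAR 2.6.0c and mm10 are named per the submitters' processing notes. Reads that match several places are left out, which lowers close paralogs, and low-input amplification can lose rare transcripts.

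Counts were filtered with filterByExpr (minimum count 10, minimum total 15), scaled with TMM factors, then tested in R 4.3.3 with edgeR 4.0.16 (glmQLFit, glmQLFTest), without covariates, over 13241 genes. Total counts were 29249270 to 35003307. The common biological coefficient of variation came to 0.264, and SE, the absolute log2 fold change divided by √F, had a median of 0.297. The procedure was tested on simulated data. A chi-square of counts within groups per degree of freedom was 37.3 for CD63 high and 73.7 for CD63 low, so the replicates differed beyond sampling noise. Alternatives were other scalings, filters, DESeq2 1.42.0, limma-voom 3.58.1, a robust dispersion, leaving out each library, and the replicate number as a block.

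Members, gene lists and tests were chosen with earlier results of these data known. Named members were Abcc8, Kcnj11, Kcnk16, Kcnma1, Kcnk3, Kcnh2 and Kcnq1, called members, the 12 smallest p-values and the 10 highest mean RPKM. Other members were named after their values were seen, and a few genes and 1 sequence are not reported here. The signature search allowed for the usual amino acid variants of the family, a choice widened after a stricter form had missed some pore-forming genes.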

Additional observations from a re-analysis of the deposited data

How the results depend on the processing

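In all genes the test called 331 higher and 38 lower. Scaled by library size alone it called 66 and 1, with no filter 690 and 250, with DESeq2 534 and 152, and with the replicate number as a block 535 and 81. Leaving out 1 library gave 378 to 512 higher and 56 to 257 lower. A lone library was then assumed to vary like the other group.

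Of potassium channel genes, 1 higher and 1 lower were called. The lower count was 0 with library size only (edgeR, 5 at an unadjusted p under 0.05), 2 with DESeq2, and 2 higher and 3 lower were called with no filter. Leaving out 1 library gave 1 to 2 higher and 0 to 2 lower. The replicate block kept 1 and 1, with Kcnk3 at 3.49 and Kcnh2 at -1.10. Replicate numbers follow the titles, while per the file headers the CD63 low libraries carry the numbers 2 and 3, so which libraries would pair is uncertain. Same-numbered libraries by title deviated with a correlation of -0.101, so the number was not taken to pair them. A crossed replicate block, chosen after seeing the data, called 1 higher and 3 lower members, 607 and 335 genes in all, and 4 lower excitability genes. The members' median log2 fold change of -0.16 was 0.00181 with no filter and -0.288 to -0.0223 without single libraries. The excitability genes that fell numbered 0 with library size only, 4 with no filter, 3 with DESeq2, 3 with the replicate block and 1 to 3 without single libraries. The 1 cotransport gene that fell was not called (0) with library size only. With a robust dispersion 4 of 14 macrophage and 1 of 14 acinar markers were called. The cause of these shifts was not tested.

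Fold changes across settings were followed only for the tested members that the rule for named members picked. Among these, the sign changed for Kcnab3 and Kcnj11, neither of which passed in any setting. Kcnab3 had -0.0255 with library size only and -0.0492 to 0.0651 without single libraries. Kcnj11 had -0.315 to 0.0307 without single libraries, above 0 without CD63 low replicate 1. Whether the sign of other tested members changed was not examined. Of all members, 21 had too few counts to test and 34 had none.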

Other observations

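Detection of the rarer potassium channel genes differed between libraries, which are numbered here by their titles. The file headers number the CD63 low libraries 2 and 3, so a shared number does not show that libraries belong together. Of the 93 members, 43 had a count in CD63 high replicate 1 and 55 in CD63 high replicate 2, against 43 in CD63 low replicate 1 and 53 in CD63 low replicate 2. Of the 59 members with any count, 6 (10.2%) had counts in both replicate 2 libraries and in neither replicate 1 library, and none had the opposite pattern. Over all 18371 genes with a count these shares were 1.28% and 0.871%. The 6 were Kcna3, Kcna7, Kcnh5, Kcnj2, Kcnj9 and Kcnj10, each with at most 15 counts in a library. The pattern was noticed after the values were seen, rests on few counts and was not tested.

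Promoter composition is given as a description. The median number of CpG dinucleotides per 300 bases was 10.5 in 26 tested members with a RefSeq promoter, 17 in 16 members with counts below the filter, 9 in 25 members without a count and 7 in all 27025 promoters.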
